A study of Sus scrofa with 5 samples.

Results

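The glycolysis isoenzymes of pig backfat were read from 5 Affymetrix porcine arrays, 1 per animal. Of 10 listed genes (HK1, HK2, GPI, PFKL, PFKM, ALDOA, ALDOC, ENO1, LDHA and LDHB), 8 had a probe set annotated to that gene alone, with 1 probe set each, out of 23999 probe sets tested. HK2 and ALDOA had no such probe set and were not measured.

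BC4, BC5 and BC6 formed the H group, with the higher intramuscular content of polyunsaturated fatty acids, and BC2 and BC3 the L group, with more saturated and monounsaturated fatty acids. All 5 were females of a backcross of Iberian × Landrace pigs to Landrace, raised in the same intensive system on a cereal-based diet given ad libitum and sampled at slaughter. The groups were set by a principal component of carcass and muscle fatty acid traits, so they differ by phenotype and not by a treatment or a single genotype, and the sixth animal of the study, BC1 of the L group, was not analysed here.

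Glycolysis turns glucose into pyruvate in the cytosol, and in fat cells it supplies carbon both for fatty acid synthesis and for the glycerol backbone of triacylglycerol. Several of its steps can be catalysed by products of different genes, called isoenzymes, which differ in tissue distribution and in regulation. In muscle and liver of mammals, for instance, different subunits of phosphofructokinase prevail, and lactate dehydrogenase is a tetramer built from A and B subunits in varying proportion.

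The arrays looked alike as a whole, with medians of 4.21 to 4.29 on the log2 scale, and 5576 probe sets (23.2%) stood at the lowest value of the table, 2.17, on all 5 of them. All 8 measured isoenzymes lay above this floor on every array. Of 8 adipocyte markers, 6 were measured and all were above the floor, with a log2 summed signal of 16.1 to 16.2 in the H group and 16.1 to 16.3 in the L group. Most of this sum was FABP4, the fatty acid carrier of adipocytes, which lay between 15.4 and 15.5 on all 5 arrays. Of the 6, 4 had a lower mean in H, with a median H minus L of -0.27 over the list, and the groups overlapped for each. Among them was LEP, the fat cell hormone leptin, at -1.16 (standard error 2.19). LPL, a lipase that releases fatty acids from lipoproteins, was at -0.46 (standard error 0.34). ADIPOQ, the hormone adiponectin, was at -0.44 (standard error 1.19), and PNPLA2 at -0.11. FABP4 and LIPE were higher in H, by 0.038 and 0.12. LEP and ADIPOQ were lowest on BC5 of the H group, and their highest arrays, BC6 for LEP and BC4 for ADIPOQ, were of the H group too. The part of these differences in the isoenzyme values was not tested. Since one label names liver for the extraction, liver genes were read as well, and of 6 hepatocyte genes all but APOA1, an apolipoprotein, had log2 values of at most 4.69 on every array. APOA1 lay between 12.2 and 12.6 in H and between 11.3 and 12.0 in L. Skeletal muscle markers were uneven between animals, with a log2 summed signal over the 12 measured of 16 listed of 6.72, 9.45 and 6.29 on BC4, BC5 and BC6 of the H group and 6.32 and 7.65 on BC2 and BC3 of the L group. Among these, MYBPC1 was at the floor on all arrays. Of the other 11, 9 had a higher mean in H and 2 a lower one, with a median H minus L of 0.19.

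Over the whole set, mean signal was lower in the H group for 6 of the 8 isoenzymes and higher for PFKL and LDHA, compared with 44.4% of the probe sets above the floor on some array that were lower. This share was taken over a set that includes probe sets with the same value on all 5 arrays, which have no direction beyond rounding. The median difference, H minus L, was -0.41 on the log2 scale over the 8 and 0.0017 over all probe sets above the floor. In limma, none of the 8 met the threshold, set at p of 0.01 or less with a 1.2-fold difference or more and 0.1 or less after adjustment, and 0% of all probe sets did. Before adjustment, none reached the 0.05 level in limma, whereas 3.18% of all probe sets did, with 1.58% lower in the H pigs and the remainder higher. The adjusted p from limma was 1 for each isoenzyme and for every other gene named. The 3 H arrays lay below both L arrays for 3 of the 8, GPI, PFKM and ENO1, and the groups overlapped for the other 5. Among all probe sets with distinct values, 20.9% did not overlap, and 9.38% were lower in H in this way. The genes are read by the same 5 animals and are not independent of each other. In bulk tissue, fewer cells of a type and less RNA per cell cannot be told apart.

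**Figure D1:**
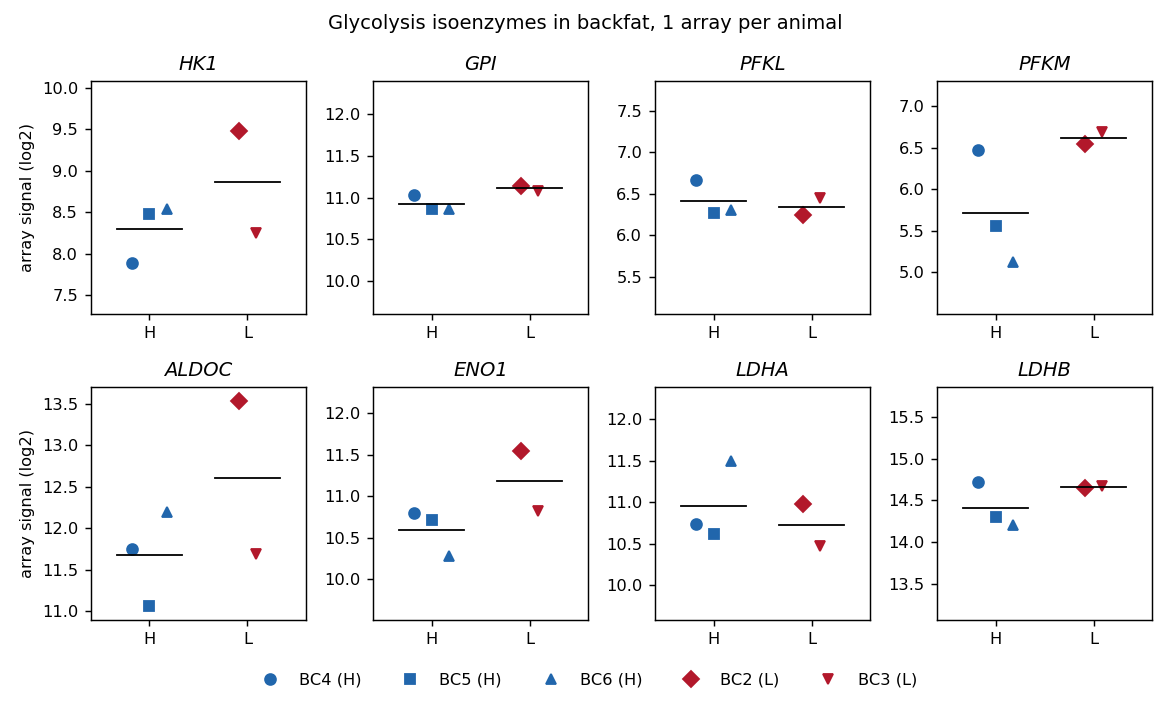
Array signal (log2) of the 8 measured glycolysis isoenzymes in pathway order, 1 point per animal, H pigs in blue on the left and L pigs in red on the right of each panel, with a line at each group mean. Each vertical axis spans the same number of log2 units, and the points of H lie below those of L without overlap for GPI, PFKM and ENO1.

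Hexokinase phosphorylates glucose and so traps it in the cell. HK1, the hexokinase found in most tissues, had log2 values of 7.89, 8.48 and 8.54 on BC4, BC5 and BC6 of the H group and 9.48 and 8.26 on BC2 and BC3 of the L group. BC2 stood 0.93 above the next highest array, while BC3 lay inside the range of the H pigs. The means were 8.30 ± 0.362 (SD, n = 3) in the H pigs and 8.87 ± 0.862 (SD, n = 2) in the L pigs, and H minus L came to -0.57 with a standard error of 0.50. Leaving out BC2 brought the difference to 0.045.

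HK3, a hexokinase best known from white blood cells, was below HK1 on all 5 arrays, by 1.45 to 2.75 on the log2 scale. Its brightest probe set read 6.43, 6.88 and 6.98 in H and 6.73 and 6.32 in L, and the groups overlapped. The other 2 probe sets of HK3 stayed at or below 3.06.

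GPI, which converts glucose 6-phosphate to fructose 6-phosphate, varied least among the 8. Its log2 values were 11.03, 10.86 and 10.87 in H and 11.14 and 11.08 in L, a range of 0.28 over the 5 arrays. All 3 H pigs were below both L pigs, with a gap of 0.048 between BC4, the highest of H, and BC3, the lowest of L. H minus L was -0.19 with a standard error of 0.072, so that H signal was 0.876 of L signal. It had the smallest unadjusted p-value of the 8, at 0.0677 from limma, and stayed between -0.25 and -0.16 when any 1 animal was left out.

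Phosphofructokinase commits sugar phosphate to glycolysis and is the main point of control of the pathway. PFKM, the muscle-type subunit, had log2 values of 6.47, 5.56 and 5.12 on BC4, BC5 and BC6 of the H group and 6.54 and 6.68 on BC2 and BC3 of the L group. The L pigs lay close together, 0.14 apart, whereas the H pigs were spread over 1.36, with BC4 only 0.069 below the lowest L pig and BC6 far below. The H pigs averaged 5.72 ± 0.692 (SD, n = 3) and the L pigs 6.61 ± 0.10 (SD, n = 2). H minus L was -0.90 with a standard error of 0.490, or 0.537 of the L signal, and it ran from -1.27 without H replicate 4 (BC4) to -0.60 without H replicate 6 (BC6). The summed skeletal muscle signal was highest on BC5, where PFKM was low, and next highest on BC3, where PFKM was highest, and its part in the PFKM values was not tested.

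PFKL, the liver-type subunit, read 6.66, 6.27 and 6.31 in H and 6.25 and 6.44 in L. The groups overlapped, BC4 was highest and BC2 lowest, and the whole range was 0.42. H minus L of 0.070 with a standard error of 0.168 was smaller than the spread within H, 0.218 (SD, n = 3).

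Since 2 probe sets on the same array are scaled together, the difference PFKM minus PFKL was taken within each animal. It was -0.19, -0.71 and -1.19 on BC4, BC5 and BC6 of the H group and 0.30 and 0.24 on BC2 and BC3 of the L group. PFKM signal was thus below PFKL signal in all 3 H pigs and above it in both L pigs. The H and L means were -0.70 ± 0.50 (SD, n = 3) and 0.27 ± 0.0390 (SD, n = 2), and they differed by -0.97. An exact two-sided permutation test gave p = 0.2, the smallest value it can give with 3 animals against 2, and an adjusted p of 0.4 over the 2 pairs of isoenzymes tested. Signal also depends on how strongly each probe set binds its target, so the sign on a single array does not say which transcript was more abundant. The change between animals is free of this only if binding adds the same amount on every array, which was not tested.

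**Figure D2:**
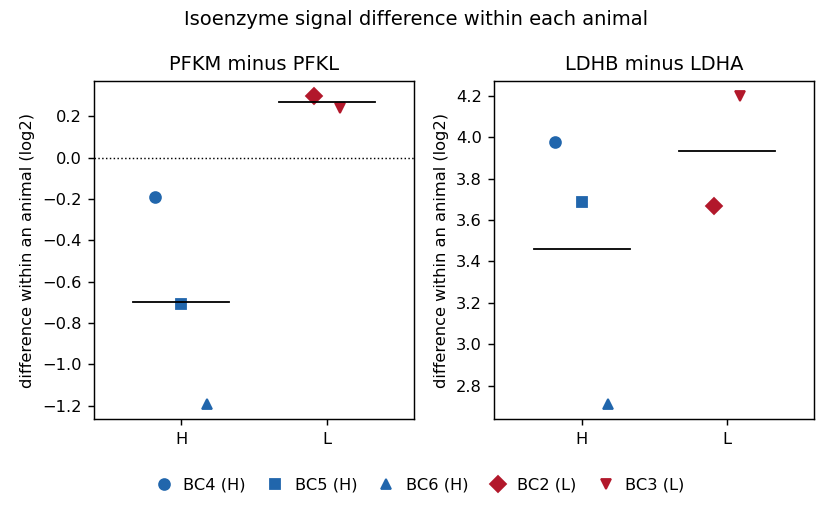
Difference in array signal (log2) between 2 isoenzymes within each animal, PFKM minus PFKL on the left and LDHB minus LDHA on the right, H pigs in blue left of L pigs in red, with a line at each group mean. PFKM minus PFKL is below the dotted line at 0 in all 3 H pigs and above it in both L pigs, and LDHB minus LDHA overlaps between the groups.

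PFKP, the platelet-type subunit, had the highest signal of the 3 phosphofructokinase genes on all 5 arrays. It read 7.02, 7.78 and 8.16 on BC4, BC5 and BC6 of H and 6.64 and 7.68 on BC2 and BC3 of L. Its lead over the next subunit was 0.10 on BC2 and 1.85 on BC6. The groups overlapped, and H minus L of 0.49 with a standard error of 0.548 became -0.028 when BC2 was left out and 1.01 when BC3 was. Among the H pigs, BC6 had the highest PFKP and the lowest PFKM, and BC4 the reverse. PFKM minus PFKP was -0.55, -2.22 and -3.04 on BC4, BC5 and BC6 and -0.10 and -0.998 on BC2 and BC3, so that BC4 lay between the L pigs.

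Aldolase splits fructose 1,6-bisphosphate into a pair of triose phosphates. ALDOC, the aldolase best known from brain, was the only aldolase read here, since ALDOA had no probe set of its own. Its log2 values were 11.75, 11.07 and 12.20 on BC4, BC5 and BC6 of H and 13.53 and 11.69 on BC2 and BC3 of L. It varied most among the 8, over a range of 2.46, with BC2 1.33 above the next highest array and BC3 inside the range of the H pigs. The H pigs averaged 11.67 ± 0.570 (SD, n = 3) and the L pigs 12.61 ± 1.302 (SD, n = 2). H minus L of -0.93, with a standard error of 0.763, was the largest of the 8 in size. It rested on BC2, being -0.012 with that pig left out and -1.85 with BC3 left out.

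The genes whose values followed ALDOC most closely over the 5 arrays were sought among 6764 other genes by the root mean square difference of values centred on each gene's mean. The closest were NRSN1, which encodes neurensin, at 0.12 log2 units, HOMER2, a scaffold protein of the postsynaptic density, at 0.24, and SPINK5, a serine protease inhibitor, at 0.25. NRSN1 had log2 values of 3.92, 3.49 and 4.58 in H and 6.04 and 3.96 in L, and thus was highest on BC2 and lowest on BC5, as was ALDOC. The summed neuron and Schwann cell markers, 3 measured of 5, did not peak on BC2. They were 8.89, 9.02 and 9.46 on BC4, BC5 and BC6 of H and 8.50 and 9.25 on BC2 and BC3 of L (log2), lowest on BC2. NEFL, of this list, was at the floor on all arrays. The likenesses to ALDOC rest on 5 arrays and were not tested.

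Enolase forms phosphoenolpyruvate, the last intermediate before pyruvate. ENO1, the enolase found in most tissues, read 10.80, 10.71 and 10.28 on BC4, BC5 and BC6 of H and 11.55 and 10.82 on BC2 and BC3 of L. All 3 H pigs were below both L pigs, but BC4 and BC3 were only 0.019 apart, and BC2 stood 0.73 above BC3. H pigs averaged 10.60 ± 0.278 (SD, n = 3) and L pigs 11.18 ± 0.514 (SD, n = 2), and H minus L was -0.59 with a standard error of 0.323. This became -0.22 when BC2 was left out and -0.95 when BC3 was.

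ENO3, the enolase of muscle, was below ENO1 on all 5 arrays, by 4.58 to 8.65. It had log2 values of 3.998, 6.13 and 3.76 on BC4, BC5 and BC6 of H and 2.90 and 4.24 on BC2 and BC3 of L. The highest values, on BC5 and then BC3, were those of the arrays with the highest skeletal muscle signal. CKM, the creatine kinase of muscle, read 3.28, 6.95 and 2.43 in H and 2.91 and 5.04 in L. Not every marker of the muscle list had this order. DES read 4.82, 3.53 and 4.08 in H and 3.96 and 4.13 in L, and was lowest on BC5. MYH7 stayed between 3.04 and 3.36, and TNNT1 did not exceed 2.33. The part of muscle tissue in the ENO3 values was not tested. H minus L of 1.06, with a standard error of 1.04, was 0.31 when BC5 was left out. ENO2, the enolase of neurons, did not exceed 2.38 on any array.

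Lactate dehydrogenase interconverts pyruvate and lactate. LDHB, the subunit that prevails in heart, had the highest signal of the 8, and ranked 43 among the 23999 probe sets by mean signal. Its log2 values were 14.72, 14.30 and 14.21 on BC4, BC5 and BC6 of H and 14.65 and 14.67 on BC2 and BC3 of L. BC5 and BC6 were below both L pigs and BC4 above both. H minus L was -0.25 with a standard error of 0.193, or 0.840 of the L signal. It ran from -0.41 when BC4 was left out to -0.15 when BC6 was.

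LDHA, the subunit that prevails in skeletal muscle, read 10.74, 10.61 and 11.50 on BC4, BC5 and BC6 of H and 10.98 and 10.47 on BC2 and BC3 of L. The groups overlapped, and BC6 was 0.51 above the next highest array. H minus L of 0.22, with a standard error of 0.381, became -0.050 when BC6 was left out, -0.031 when BC3 was and 0.48 when BC2 was. BC6 was also the array with the highest summed signal of macrophage markers, at 8.40, 8.50 and 10.5 in H and 9.15 and 9.61 in L (log2, over the 4 measured of 6 listed, all above the floor). The summed fibroblast markers, 4 measured of 6, ran from 14.4 to 15.4 in H and from 14.9 to 15.1 in L and were highest on BC6 as well. HIF1A, a regulator of glycolysis genes in low oxygen, read 11.47, 11.37 and 12.51 in H and 11.78 and 11.79 in L, again with BC6 highest. Their part in the LDHA value was not tested.

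LDHB minus LDHA within an animal was 3.98, 3.69 and 2.71 on BC4, BC5 and BC6 of H and 3.67 and 4.20 on BC2 and BC3 of L. LDHB signal was the higher one in every animal, and the groups overlapped. The H pigs averaged 3.46 ± 0.662 (SD, n = 3) and the L pigs 3.93 ± 0.375 (SD, n = 2), and the means differed by -0.47, with p = 0.6 from the exact two-sided permutation test and 0.6 after adjustment over the 2 pairs. LDHC, the subunit of testis, was at the floor on all 5 arrays.

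**Figure D3:**
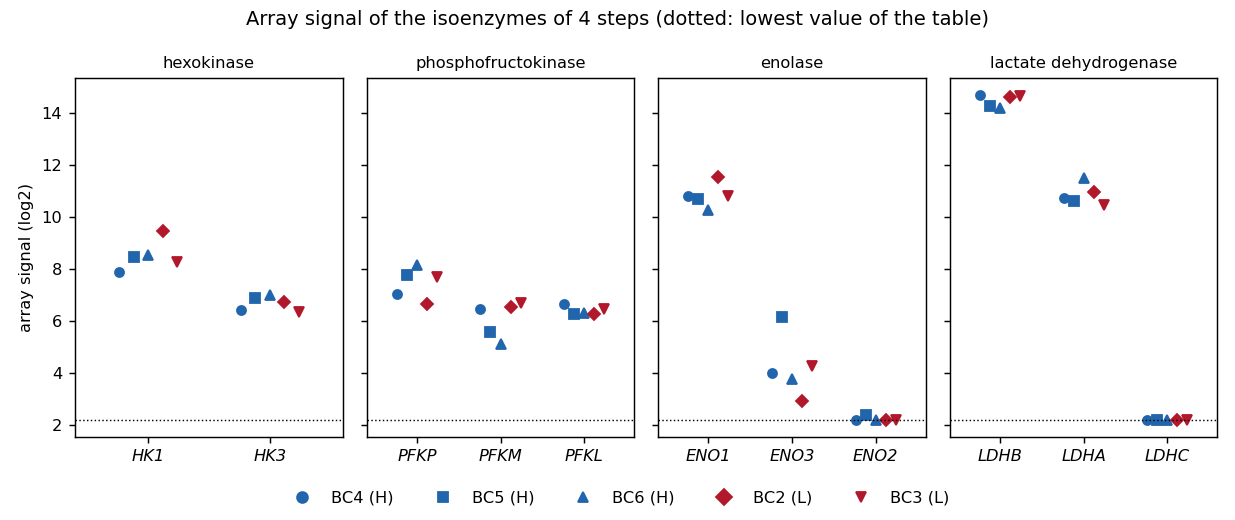
Array signal (log2, vertical axis) of the isoenzymes of 4 steps, 1 point per animal, H pigs in blue left of L pigs in red at each gene, with a dotted line at the lowest value of the table, 2.17. HK1, PFKP, ENO1 and LDHB are the highest of their step on all 5 arrays, PFKM changes places with PFKL between animals, and LDHC lies on the floor.

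At each of the 4 steps with more than 1 measured isoenzyme, the same gene therefore had the highest signal in all 5 animals, namely HK1, PFKP, ENO1 and LDHB, regardless of group. These are orders of array signal, which depends on how well each probe set binds as well as on the amount of transcript, and they leave out HK2 and ALDOA.

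**Figure D4:**
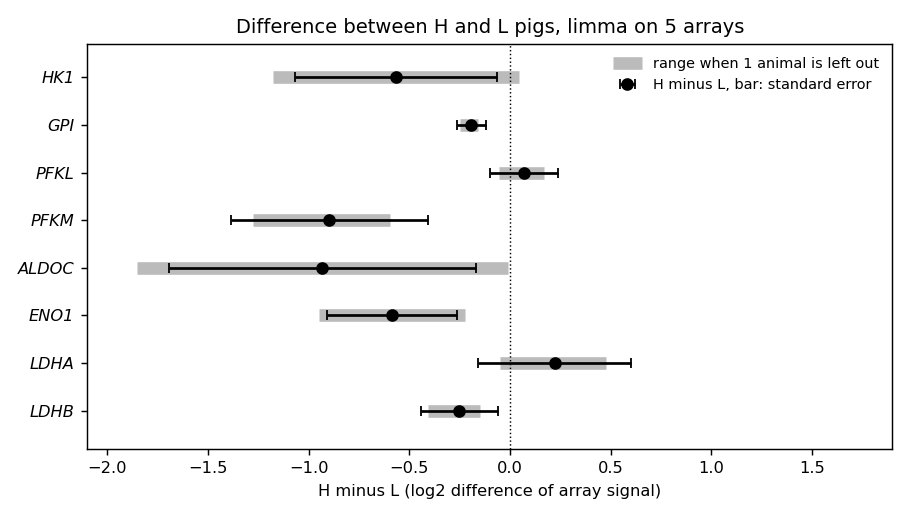
Difference in array signal between H and L pigs (log2, horizontal axis) for the 8 isoenzymes, with the standard error from limma as a bar and, in grey, the range when any 1 of the 5 animals is left out. The grey range stays below 0 for GPI, PFKM, ALDOC, ENO1 and LDHB, reaches -0.012 for ALDOC, and crosses 0 for HK1, PFKL and LDHA.

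Animal by animal, BC2 of the L group had the highest value of the 5 for 4 of the 8 isoenzymes, HK1, GPI, ALDOC and ENO1. The summed adipocyte markers were highest on BC2 too, at 16.24, 16.09 and 16.13 on BC4, BC5 and BC6 of H and 16.28 and 16.14 on BC2 and BC3 of L (log2). Of these markers, LPL was highest on BC2, whereas LEP was highest on BC6 and ADIPOQ on BC4. BC2 was also the array with the lowest summed signal of endothelial markers, at 13.5, 14.2 and 13.3 on BC4, BC5 and BC6 of H and 13.0 and 13.6 on BC2 and BC3 of L (log2, over the 6 measured of 6 listed), of which 4 of the 5 above the floor had a higher mean in H and KDR was at or near the floor. CLDN5, a tight junction protein, had an H minus L of 1.13 with no overlap between the groups. The summed smooth muscle markers, 4 measured of 5, were 13.9, 13.1 and 13.3 in H and 12.7 and 13.5 in L, lowest on BC2 too, and all 4 had a higher mean in H, with a median of 0.63. Their part in the isoenzyme values was not tested. BC6 of the H group had the lowest value for 3, PFKM, ENO1 and LDHB, and BC5 of the H group for GPI and ALDOC. With BC2 left out, H had the lower mean for 6 of the 8, HK1 having turned to 0.045 and PFKL to -0.029. The differences of GPI, PFKL, ALDOC and ENO1 then lay between -0.22 and -0.012, that of PFKM was -0.97 and that of LDHB -0.26. The H mean was lower for 6 or 7 of the 8 whichever animal was left out.

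The rest of the pathway was read from a list of 19 genes, of which 11 were measured and 10 were above the floor. Of these 10, mean signal was higher in H for 5 and lower for 5, with a median difference of 0.02, and none passed the threshold in either direction. GAPDH, which oxidizes glyceraldehyde 3-phosphate, had the smallest p-value of the list. Its brightest probe set read 12.93, 12.68 and 12.90 in H and 13.16 and 13.25 in L, and the next brightest 12.46, 12.09 and 12.39 in H and 12.85 and 12.80 in L. On both, all 3 H pigs were below both L pigs, and H minus L was -0.37 with a standard error of 0.103 and -0.51 with a standard error of 0.139. The unadjusted p-values from limma were 0.0317 and 0.0288, both 1 after adjustment. A dimmer probe set of GAPDH overlapped between the groups, and the other 2 were near the floor.

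PGK1, which makes the first ATP of the pathway, followed HK1 and ENO1 in being highest on BC2, at 11.19, 10.59 and 10.78 in H and 12.03 and 10.91 in L. H minus L was -0.62 with a standard error of 0.450, and -0.061 when BC2 was left out. PGM2, which handles sugar phosphates outside the main line, differed by 0.56 (standard error 0.392) and BPGM, which makes 2,3-bisphosphoglycerate in red cells, by -0.17 (standard error 0.232). TPI1, which interconverts the triose phosphates, and PKM, the pyruvate kinase of most tissues, differed by 0.11 and 0.05.

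**Figure D5:**
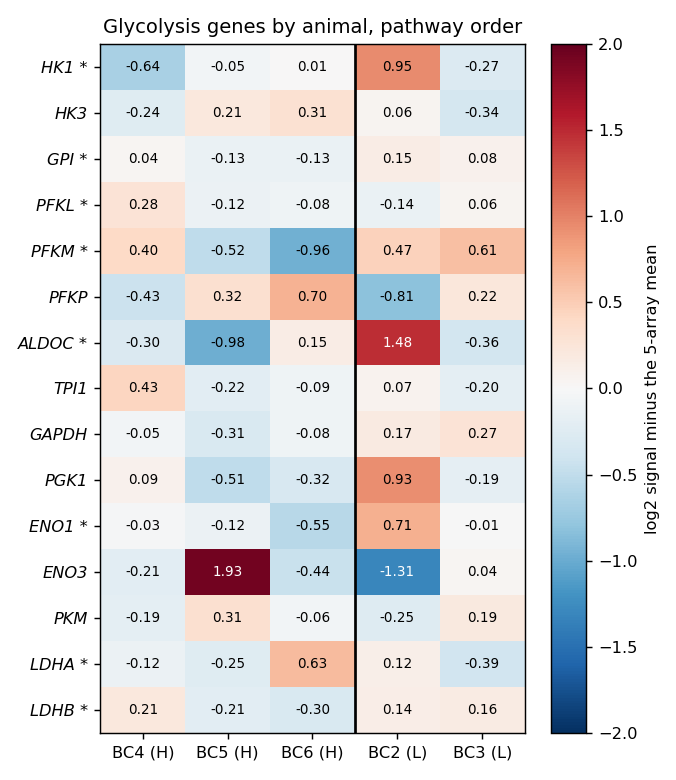
Log2 signal of 15 glycolysis genes minus the mean of the gene over the 5 arrays (colour scale and printed values), in pathway order from top to bottom, H pigs in the 3 columns on the left and L pigs in the 2 on the right, with the 8 listed isoenzymes marked by an asterisk. BC2 is high for HK1, ALDOC, PGK1 and ENO1, BC5 for ENO3, and PFKM is low on BC5 and BC6.

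Of 21 genes that act on pyruvate and lactate after glycolysis, 16 were measured, of which 15 stood at least 0.1 clear of the floor on an array. Mean signal was lower in H for 13 of them and higher for 2, compared with 44.4% lower among all probe sets above the floor on some array. That share also covers probe sets closer to the floor than these 15. Over the 15, the median difference was -0.25, and none passed the threshold. PDHA1 and DLAT, subunits of pyruvate dehydrogenase, differed by -0.31 (standard error 0.232) and -0.58 (standard error 0.438), and MPC2, a subunit of the mitochondrial pyruvate carrier, by -0.68 (standard error 0.445). PCK2, the mitochondrial phosphoenolpyruvate carboxykinase, went the other way by 0.24 (standard error 0.082). All 3 H pigs, at 4.51, 4.70 and 4.62, were above both L pigs, at 4.30 and 4.43. The other 2 probe sets of PCK2 were at or near the floor on all arrays. Of 14 genes of the list with distinct values, 1 was higher in H without overlap, PCK2, and 1 lower, PDHA1. Among all probe sets with distinct values, 20.9% did not overlap. When BC2 was left out, DLAT differed by -0.015 and MPC2 by -0.14.

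Of 6 regulators listed, 4 were measured. HIF1A and EPAS1, both hypoxia-inducible factors, and MYC differed by -0.0033, 0.31 and -0.20 on the log2 scale, with overlapping groups. PPARGC1A, a coactivator of mitochondrial genes, stayed at the floor throughout. MLXIPL, the carbohydrate response factor ChREBP, and its partner MLX had no probe set of their own.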

How the data were processed

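The deposited values, on the log2 scale, had been background-adjusted, normalized between arrays and summarized per probe set by the authors. GCRMA is named in the methods but RMA in the submitters' processing notes, and which was used is not settled. The animals' numbers come from the sample titles and their groups from the study. The 124 control probe sets were left out, and H minus L was fitted for 23999 of 24123 with limma 3.58.1 (R 4.3.3), without covariates, p-values being adjusted by Benjamini-Hochberg over all of them. The thresholds are those of the study's sequencing comparison. A table of probe annotation gave 1 symbol for 10069 probe sets. Where a gene outside the 8 had several, the one with the highest mean was used. Pairs of isoenzymes were compared with an exact permutation test (scipy 1.17.1). Of 4 pairs planned, 2 needed HK2 or ALDOA and could not be computed.

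Named genes are all members, partner isoenzymes and up to 4 of each further pathway list by smallest p, all listed regulators, markers from the cell type lists, and the 3 genes nearest to the isoenzyme of widest range. TPI1 and PKM were chosen after their values were seen. The members and lists were chosen with earlier results of these data known. The alternatives were another threshold, filters on dim probe sets, other scalings, variance models and array weights, and the removal of each animal in turn. Only the limma fit of H minus L to all arrays, without these alternatives, was first checked on simulated data. How often that fit finds a difference at the spread of these animals is not reported. With 1 array per animal, the number of arrays limits the precision, and p-values cover only the spread between these animals.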

Additional observations from a re-analysis of the deposited data

How the results depend on the processing

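No isoenzyme passed the threshold under any alternative. Adjusted p-values from limma ran from 0.476 to 1 over the 8 together, the lowest under median centring. This range covers the alternatives that kept both L arrays, without the variance models, for which only the counts past the threshold were taken. Over all probe sets, 0 passed in limma with all 5 arrays under every alternative, while 762 had an unadjusted p under 0.05, and 0 to 286 passed without 1 animal (160 without L replicate 2 and 286 without L replicate 3, fits in which 1 L array remained and took its spread from the H group). Scaling and array weights turned no difference of the 8. Leaving out 1 animal turned HK1 (-1.17 to 0.045), PFKL (-0.056 to 0.17) and LDHA (-0.050 to 0.48), and among the other genes PFKP (-0.028 to 1.01) and BPGM (-0.31 to 0.012). GPI, PFKM, ALDOC, ENO1 and LDHB kept their direction. PFKM minus PFKL ran from -1.22 to -0.72 and LDHB minus LDHA from -0.74 to -0.10. The count of isoenzymes with a lower mean in H, 6 or 7 without 1 animal, and the alternatives for genes outside the 8 were added after seeing the data. Median centring moved the median difference of all probe sets by -0.04. The cause of the changes was not tested. No paired analysis was made, because each animal belongs to 1 group and the sample titles name no pairs.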
